A study of Homo sapiens with 6 samples.

Results

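The transcripts of 10 transcription factors of blood progenitors and myeloid cells, TAL1, GATA2, MEIS1, HHEX, MYB, CEBPA, SPI1, GFI1, IKZF1 and HOXA9, were examined in Kasumi-1 cells. A probe set was taken where the annotation of the HG-U133 Plus 2.0 array gave one of these symbols as its only gene. That rule gave 25 probe sets for 9 of the 10 genes, among 19775 genes with such a probe set in all, and HOXA9 was not analysed here. Of the 25 probe sets, 22 passed the filter on dim signals, with at least 1 for each of the 9 genes.

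Kasumi-1 is a human acute myeloid leukaemia cell line with the RUNX1-RUNX1T1 fusion gene. The HHT group held 3 arrays of cells kept for 24 h in 20 nM homoharringtonine (HHT), a plant alkaloid that blocks translation elongation. The vehicle group held 3 arrays of the same line and medium after 24 h without the drug, so all values come from 1 cell line. Whether each array had its own culture is not given in the labels, and the p-values cover only array-to-array spread, which may be technical. The title of the study concerns MYC transcription and an NF-kB repressing factor, and the blood factors below are a view of the same arrays beside that question.

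Haematopoietic transcription factors act in combination. TAL1 is a basic helix-loop-helix protein that pairs with E proteins and joins LMO2, LDB1 and a GATA factor in one complex, and it is needed to form blood stem cells. CEBPA and SPI1, which encodes PU.1, direct progenitors to the granulocyte and monocyte lineages. GFI1 is a zinc finger repressor of transcription that acts in granulocyte development, and IKZF1 encodes Ikaros, best known in lymphoid cells. MEIS1 is a homeodomain cofactor of HOX proteins in leukaemia, HHEX is a homeodomain repressor active in early progenitors, and MYB keeps progenitors dividing.

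All values are deposited log2 signals, and a change is the HHT mean minus the vehicle mean. A gene is represented by its brightest single-gene probe set and was called where limma's adjusted p, over all 32768 probe sets tested, was under 0.05. Of the 9 factors, 4 rose (MEIS1, HHEX, CEBPA and IKZF1), 3 fell (TAL1, MYB and GFI1) and 2 (GATA2 and SPI1) were not called. The called share of 77.8% stands against 53.8% of all 13572 genes tested, of which 29.6% were called higher and 24.2% lower. The 2 groups of arrays did not overlap for 7 of the 9 factors, and for 62.2% of all genes. The median change of the 9 factors was 0.16, against 0.00 over all genes.

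**Figure D1:**
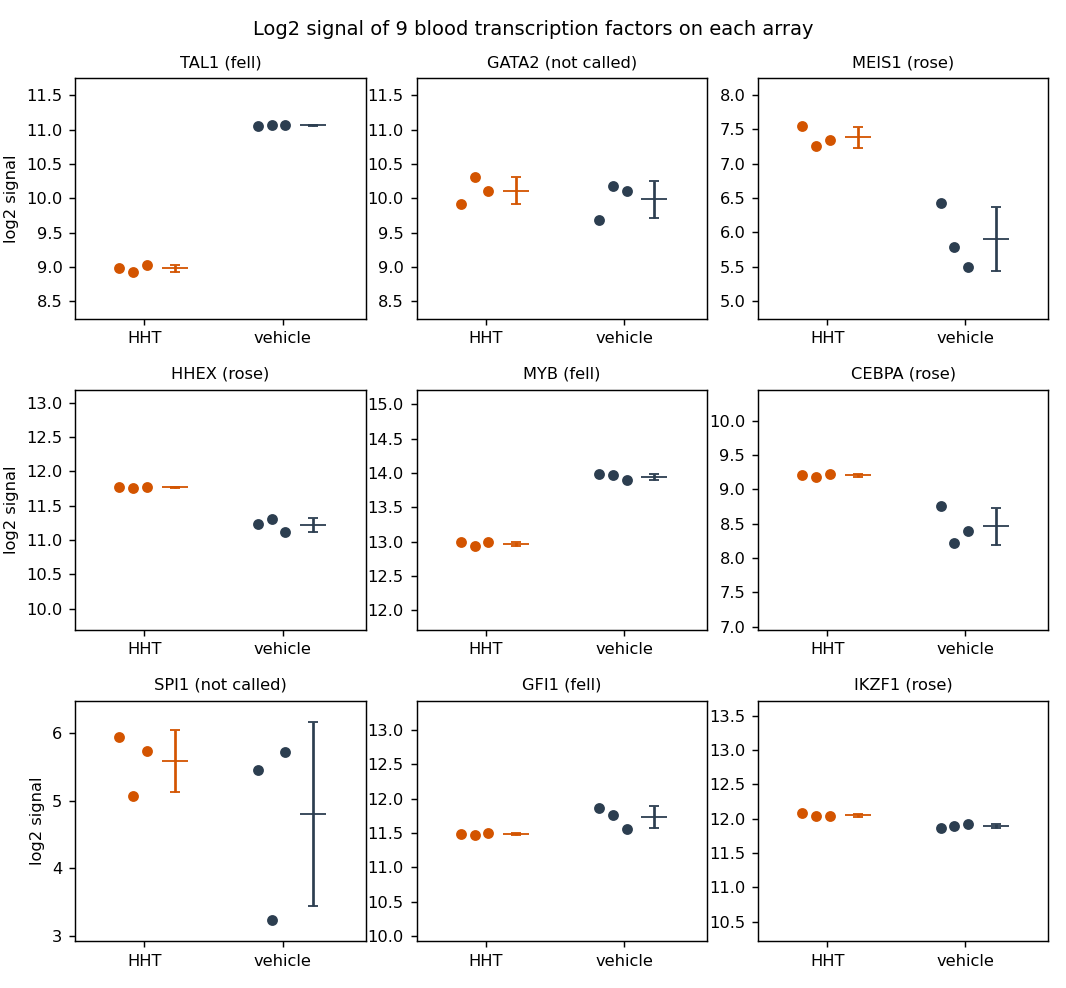
Log2 signal of the brightest probe set of each of the 9 factors, 1 panel per gene, with the 3 HHT arrays left of the 3 vehicle arrays; points are arrays and bars are means. TAL1 and MYB sit lower on all 3 HHT arrays, MEIS1, HHEX, CEBPA and IKZF1 sit higher, and the groups overlap for GATA2 and SPI1.

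Among the progenitor factors TAL1 had the largest fall. Its brightest probe set, 206283_s_at, had signals of 8.99, 8.92 and 9.03 on the HHT arrays, against 11.05, 11.07 and 11.07 on the vehicle arrays. Every HHT array lay about 2 log2 units below every vehicle array. The means were 8.98 ± 0.0572 in HHT and 11.06 ± 0.0134 in vehicle (SD, n = 3 each), a change of -2.08 (SE 0.0772, limma adjusted p = 3.29e-08) or a 4.23-fold lower signal. Of the 13572 genes tested, 87 (0.641%) had a lower change.

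The other TAL1 probe sets were dimmer and less even. Probe set 216925_s_at had signals of 3.98, 5.70 and 6.09 on the HHT arrays, against 7.0, 7.31 and 7.38 on the vehicle arrays, and fell by 1.97 (SE 0.485, adjusted p = 0.00649). Its HHT arrays spread widely, but none reached a vehicle array. Probe set 1561651_s_at had a change of 0.03 (SE 0.569, adjusted p = 0.973) and was not called. Probe set 216928_at was below the filter, with means of 2.09 in HHT and 3.98 in vehicle.

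MYB, which in mice and in leukaemia lines sustains progenitor growth, fell on both of its probe sets. Probe set 204798_at had signals of 12.99, 12.94 and 12.99 on the HHT arrays, against 13.98, 13.97 and 13.90 on the vehicle arrays. These groups were far apart relative to their spread, with means of 12.97 ± 0.0279 in HHT and 13.95 ± 0.042 in vehicle (SD, n = 3 each). The change of -0.98 (SE 0.0496, adjusted p = 1.73e-07) is a 1.97-fold lower signal, and 1145 genes (8.44%) had a lower change. The dimmer probe set 215152_at had 7.75, 7.84 and 7.67 on the HHT arrays and 8.80, 8.95 and 8.89 on the vehicle arrays, a change of -1.12 (SE 0.123, adjusted p = 2.72e-05). Both MYB probe sets thus give falls of similar size.

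The 2 genes with a fall of about 1 log2 unit or more, TAL1 and MYB, differ in the bases before their starts. Promoter sequences are RefSeq's, on GRCh38.p14, and cover the 250 bases before the annotated start, 5′ to 3′ on the gene's strand; they were found for 8 of the 9 factors. The TAL1 window is chr1:47232336-47232585 on the minus strand, with a GC content of 64.8%, and the MYB window is chr6:135181058-135181307 on the plus strand, with 75.6%. The median over 27305 promoters was 58.0%. Both are shown because these genes fell most, and capitals mark a match to a searched motif.
TAL1: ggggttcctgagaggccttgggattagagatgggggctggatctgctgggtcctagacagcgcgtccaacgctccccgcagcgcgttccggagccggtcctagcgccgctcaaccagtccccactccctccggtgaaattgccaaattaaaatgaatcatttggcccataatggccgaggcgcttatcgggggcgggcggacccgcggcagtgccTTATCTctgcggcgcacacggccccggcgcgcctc
MYB: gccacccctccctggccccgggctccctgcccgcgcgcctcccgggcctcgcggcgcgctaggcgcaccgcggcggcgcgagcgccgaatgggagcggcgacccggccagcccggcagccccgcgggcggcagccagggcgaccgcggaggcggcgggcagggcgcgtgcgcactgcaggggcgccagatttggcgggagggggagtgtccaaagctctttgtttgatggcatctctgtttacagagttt
The capitals in TAL1, 35 to 30 bases before the start, are TTATCT, which is the GATA motif AGATAA read on the other strand. That motif was in 9.37% of all promoters. The MYB window held none of the 6 motifs searched.

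GATA2, a zinc finger factor of stem cells and a partner of TAL1, was not called on any of its 3 probe sets. Probe set 209710_at had signals of 9.92, 10.31 and 10.10 on the HHT arrays, against 9.68, 10.18 and 10.10 on the vehicle arrays. The groups overlapped, and the change was 0.12 (SE 0.14, adjusted p = 0.515). The other probe sets had changes of -0.22 and 0.09. The signals of different probe sets are not comparable as levels, but a change in their difference within an array is. TAL1 minus GATA2 was -0.93, -1.39 and -1.07 on the HHT arrays, against 1.36, 0.89 and 0.97 on the vehicle arrays. This difference was lower by 2.20 in HHT (SE 0.201; exact two-sided permutation p = 0.1, the smallest that 3 against 3 arrays allow, and 0.2 adjusted over the 4 pairs of factors compared). The groups did not overlap, and a constant added to an array leaves this difference as it is.

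MEIS1 had the largest rise of the 9 factors. Probe set 204069_at had signals of 7.55, 7.25 and 7.35 on the HHT arrays, against 6.42, 5.79 and 5.50 on the vehicle arrays. All HHT arrays lay above all vehicle arrays, and the vehicle arrays were the more spread. The means were 7.38 ± 0.153 in HHT and 5.91 ± 0.47 in vehicle (SD, n = 3 each), a change of 1.48 (SE 0.28, adjusted p = 0.00133) or a 2.79-fold higher signal. A higher change was seen for 584 genes (4.3%). The second probe set, 1559477_s_at, was dim, with a change of 0.74 (SE 0.74, adjusted p = 0.448), and with the mean of both probe sets MEIS1 had a change of 1.11 that was not called (adjusted p = 0.062). With a pseudocount of 64, which shrinks changes of dim signals, the change of MEIS1 was 0.89 (adjusted p = 6.77e-04).

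HHEX rose on both probe sets. Probe set 215933_s_at had signals of 11.77, 11.76 and 11.77 on the HHT arrays, against 11.23, 11.31 and 11.11 on the vehicle arrays. The HHT arrays were nearly equal and all above the vehicle arrays, and the change was 0.55 (SE 0.0682, adjusted p = 6.57e-05), or 1.47-fold. Probe set 204689_at rose by 0.45 (SE 0.0939, adjusted p = 0.00257).

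Of the myeloid factors, CEBPA rose. Its 1 probe set, 204039_at, had signals of 9.21, 9.18 and 9.22 on the HHT arrays, against 8.76, 8.22 and 8.4 on the vehicle arrays. The HHT arrays lay close together above the vehicle arrays. The means were 9.2 ± 0.0183 in HHT and 8.46 ± 0.275 in vehicle (SD, n = 3 each), a change of 0.74 (SE 0.141, adjusted p = 0.00136) or a 1.67-fold higher signal. CEBPA is best known for switching progenitors to granulocyte differentiation.

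SPI1 was dim and uneven. Probe set 205312_at had signals of 5.95, 5.07 and 5.74 on the HHT arrays, against 5.46, 3.23 and 5.72 on the vehicle arrays. The groups overlapped, with a change of 0.78 (SE 0.671, adjusted p = 0.376), and 1 vehicle array lay far below the rest. Without vehicle replicate 2 the change was -0.01 (adjusted p = 0.988). CEBPA minus SPI1, compared within each array, had a change of -0.04 (SE 0.736; exact permutation p = 0.9, also 0.9 adjusted over 4 pairs).

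GFI1 fell slightly. Probe set 206589_at had signals of 11.48, 11.47 and 11.50 on the HHT arrays, against 11.87, 11.76 and 11.56 on the vehicle arrays. The groups did not overlap, but the nearest arrays were close. The change was -0.25 (SE 0.0798, adjusted p = 0.0269), or 1.19-fold lower. This call was lost under 2 of the other 3 scalings, with changes of -0.01 and 0.04, without the variance trend, and when any array other than vehicle replicate 3 was left out. GFI1 minus SPI1 within each array had a change of -1.02 (SE 0.86; exact permutation p = 0.3, and 0.4 adjusted over 4 pairs).

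IKZF1 was measured by 9 probe sets, of which 7 were tested, and 3 rose, 1 fell and 3 were not called. The brightest, 227346_at, had signals of 12.08, 12.04 and 12.04 on the HHT arrays, against 11.86, 11.90 and 11.92 on the vehicle arrays. The groups did not overlap, and the change was small at 0.16 (SE 0.0556, adjusted p = 0.0336), or 1.12-fold. This call too was lost when any array other than vehicle replicate 3 was left out, with adjusted p between 0.0578 and 0.102. Probe sets 205039_s_at and 227344_at rose by 0.34 (adjusted p = 0.0124) and 0.4 (adjusted p = 0.0118). Probe set 220704_at went the other way, with 5.89, 5.30 and 5.87 on the HHT arrays and 6.24, 7.02 and 6.58 on the vehicle arrays. Its change was -0.93 (adjusted p = 0.0386), a call that no other scaling kept. MYB minus IKZF1 was 0.91, 0.91 and 0.95 on the HHT arrays, against 2.12, 2.07 and 1.99 on the vehicle arrays. That difference was lower by 1.14 in HHT (SE 0.0418; exact permutation p = 0.1, and 0.2 adjusted over 4 pairs).

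MEIS1 and CEBPA, the 2 factors with the largest called rises, also have unlike windows before their starts. The MEIS1 window is chr2:66434875-66435124 on the plus strand, with a GC content of 59.6%, and the CEBPA window is chr19:33302535-33302784 on the minus strand, with 81.2%. They are shown beside the windows of TAL1 and MYB so that genes that rose and genes that fell can be compared.
MEIS1: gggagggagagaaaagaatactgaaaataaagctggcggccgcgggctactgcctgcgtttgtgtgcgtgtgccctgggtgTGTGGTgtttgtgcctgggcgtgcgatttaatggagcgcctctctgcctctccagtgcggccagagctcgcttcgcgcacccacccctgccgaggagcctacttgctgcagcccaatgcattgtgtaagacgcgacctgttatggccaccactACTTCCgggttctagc
CEBPA: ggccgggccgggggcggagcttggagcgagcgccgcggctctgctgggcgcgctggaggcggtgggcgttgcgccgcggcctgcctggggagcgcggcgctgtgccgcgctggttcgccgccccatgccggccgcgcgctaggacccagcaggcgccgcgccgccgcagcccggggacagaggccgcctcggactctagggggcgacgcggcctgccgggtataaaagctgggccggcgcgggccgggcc
The capitals in MEIS1 are TGTGGT, a RUNX motif 169 to 164 bases before the start that was in 10.9% of all promoters, and ACTTCC, 16 to 11 bases before the start. The second is the ETS motif GGAAGT on the other strand, found in 19.9% of all promoters and also in the IKZF1 window. CEBPA held no match. The MYB motif AACTG, in 34.3% of promoters, was in the HHEX window. The MYC E-box CACGTG, in 6.49% of promoters, and the NF-kB motif, in 1.73%, were in none of the 8 windows. Both strands were searched and no matches overlapped.

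Over all 22 tested probe sets of the 9 factors, 7 rose, 6 fell and 9 were not called. Among all probe sets tested, 46.3% were called, 23.0% higher and 23.3% lower. TAL1, MEIS1 and IKZF1 are the genes whose tested probe sets did not share 1 call.

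**Figure D2:**
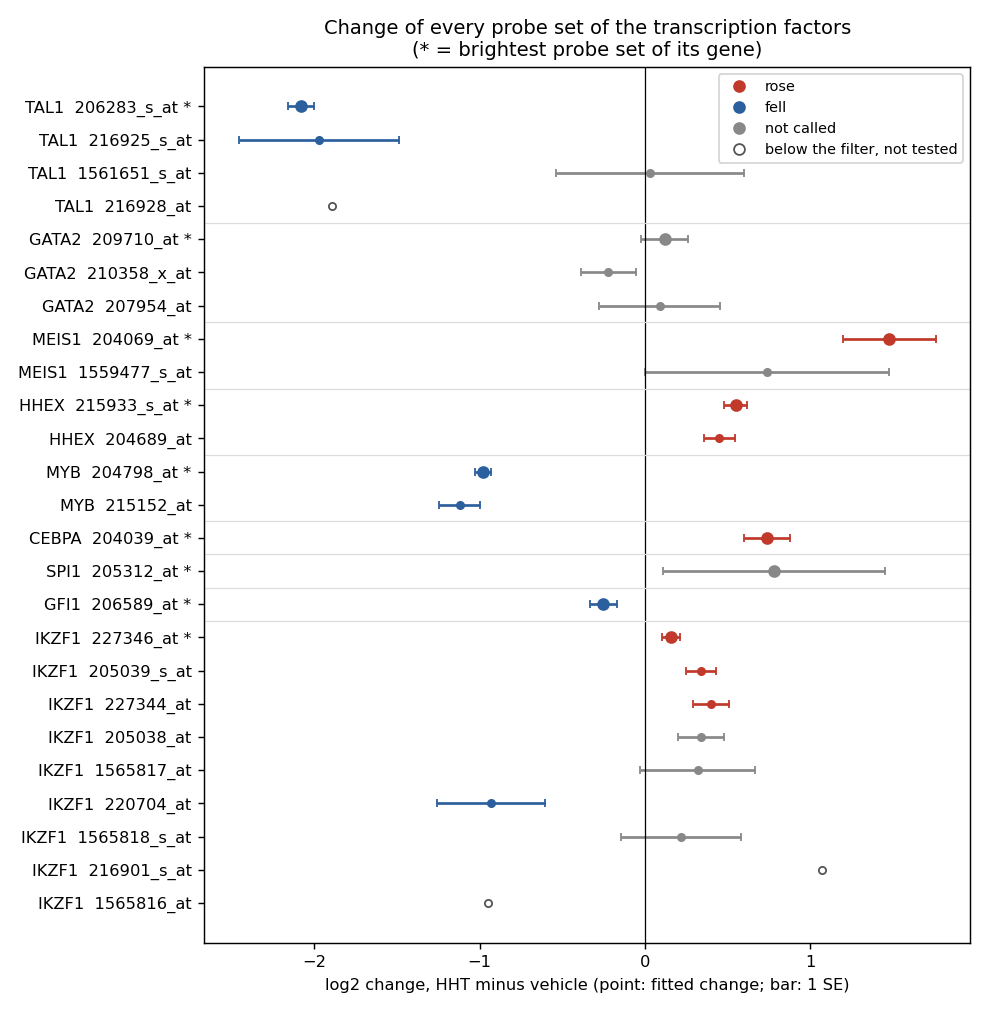
Change in log2 signal (HHT minus vehicle) of each of the 22 tested probe sets, grouped by gene, with bars for the standard error. Open points are the 3 probe sets below the filter, which were not tested. Both MYB probe sets lie near -1 and both HHEX probe sets near 0.5, while the tested IKZF1 probe sets span changes from -0.93 to 0.4.

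The size of a change depends on how the arrays are set against each other. The 18 hybridisation control probe sets, which report RNA meant to be added in equal amounts, averaged 11.7 ± 0.0598 on the HHT arrays and 11.98 ± 0.0282 on the vehicle arrays (SD, n = 3 each), and the array medians were 5.53 to 5.77 in HHT and 5.82 to 5.96 in vehicle. With equal medians or equal hybridisation controls the median change of all genes moved to 0.24 and 0.28, and the share of calls that were higher to 74.7% and 76.4%, against 55.1% as deposited and 56.5% after quantile normalization. Of all genes 50.0% were called with equal medians (37.3% higher, 12.7% lower), 52.7% after quantile normalization (29.8% higher, 22.9% lower) and 54.4% with equal hybridisation controls (41.6% higher, 12.8% lower). The factors that rose and fell numbered 4 and 2 with equal medians, 4 and 3 after quantile normalization and 5 and 2 with equal hybridisation controls. TAL1 fell under all 4 scalings, with changes of -2.16 to -1.80, and so did MYB, with changes of -0.98 to -0.68. MEIS1 rose by 1.48 to 1.76 under all 4, HHEX by 0.51 to 0.84, CEBPA by 0.66 to 1.02 and IKZF1 by 0.16 to 0.45. GATA2 was called only with equal hybridisation controls, with a change of 0.40 (adjusted p = 0.0283). The median change of all genes under that scaling was 0.28.

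**Figure D3:**
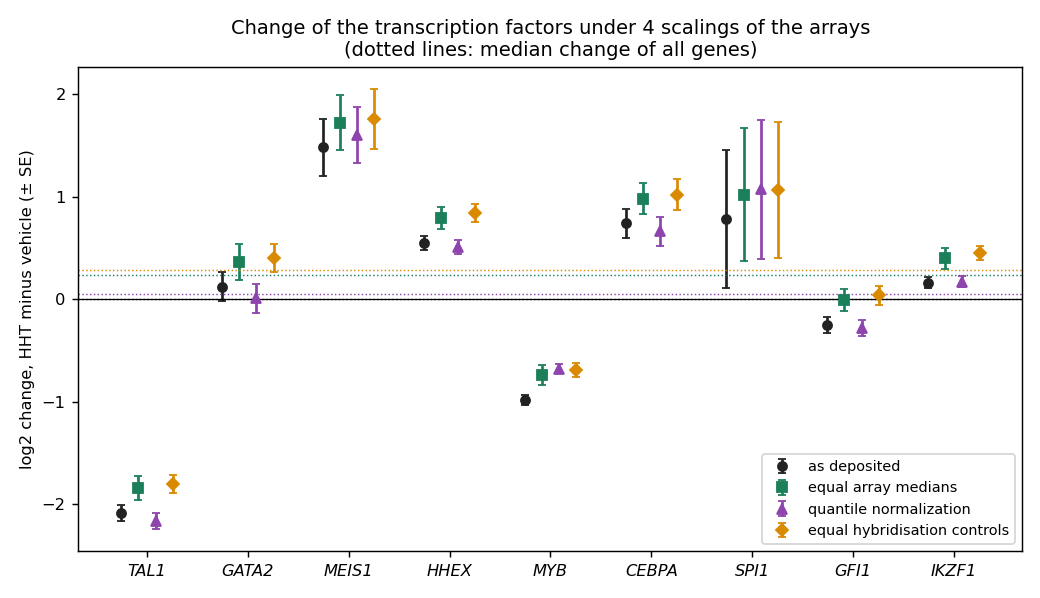
Change in log2 signal (HHT minus vehicle) of the 9 factors under 4 scalings of the arrays, with the median of all genes under each. TAL1 and MYB stay below 0 and MEIS1, HHEX, CEBPA and IKZF1 above it under each scaling, while GFI1 lies between -0.28 and 0.04.

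Relatives of the members were examined next: 22 genes of the same families, of which 19 were tested, 6 rose, 4 fell and 9 were not called. Of all 13572 genes tested, 53.8% were called, a share close to that of the relatives. In the TAL1 family LYL1, its close paralog, rose by 0.44 (SE 0.06, adjusted p = 1.41e-04) where TAL1 fell. GATA6, a relative of GATA2 from other tissues, rose by 0.50 (adjusted p = 0.00893), while its other tested probe set had a change of 0.01 and was not called. MEIS2 rose by 0.82 (adjusted p = 4.15e-06), with means of 12.28 ± 0.111 in HHT and 11.46 ± 0.0376 in vehicle (SD, n = 3 each). The related PKNOX1 rose by 0.42 (adjusted p = 0.00749) on its brightest probe set. None of its other 3 tested probe sets was called, with changes of -0.40, -0.61 and 0.33. MYBL2, a MYB relative of dividing cells, fell by 1.41 (adjusted p = 2.99e-06), with means of 9.83 ± 0.244 in HHT and 11.24 ± 0.0697 in vehicle (SD, n = 3 each). MYBL1 rose by 1.28 (SE 0.247, adjusted p = 0.0015) on its brightest probe set while its other probe set fell by 0.95.

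The CEBP family was split. CEBPG fell by 0.43 (adjusted p = 0.0015) and CEBPB by 0.21 (adjusted p = 0.0107) as deposited. Neither call held with equal medians or equal hybridisation controls, and CEBPB then had changes of 0.03 and 0.07. CEBPD and CEBPE had changes of 0.26 and 0.29 and were not called. IKZF2, which encodes Helios, fell by 1.23 (adjusted p = 8.86e-06), with means of 9.07 ± 0.181 in HHT and 10.30 ± 0.145 in vehicle (SD, n = 3 each). IKZF3 and IKZF4 were not called, and IKZF5 rose by 0.30 (adjusted p = 0.0482), a call lost after quantile normalization, without the variance trend and without 5 of the 6 arrays in turn. GATA1, SPIC and GFI1B were below the filter.

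**Figure D4:**
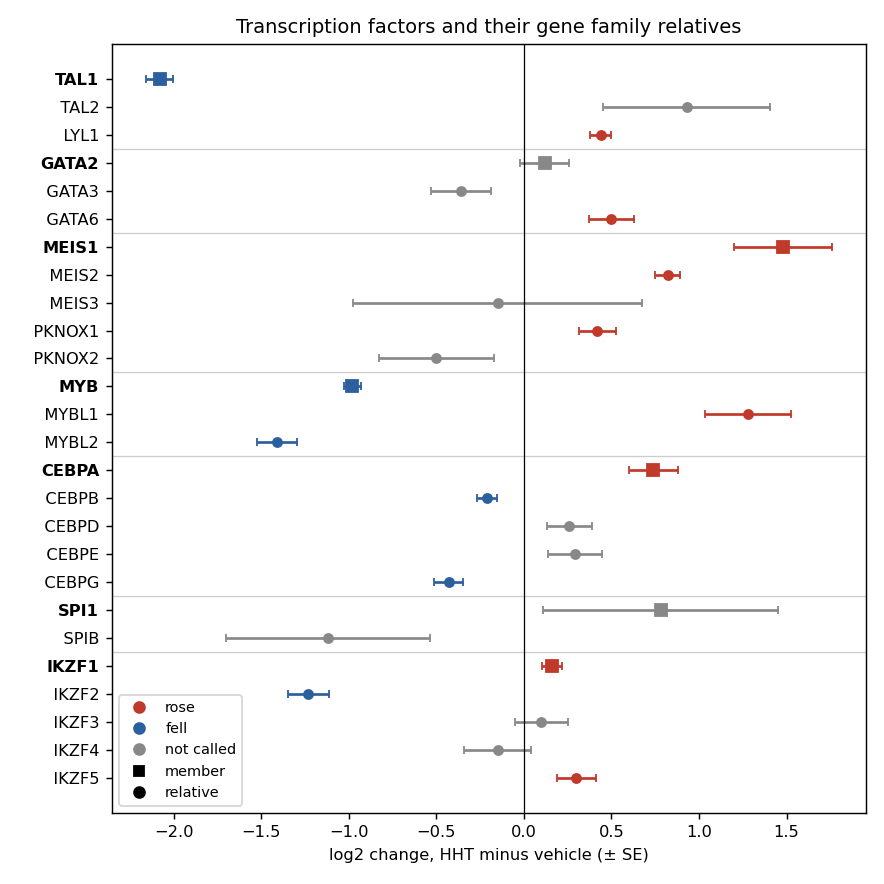
Change in log2 signal (HHT minus vehicle) of each member and its tested relatives, family by family, with bars for the standard error. MYB and MYBL2 lie below 0 and MEIS1 and MEIS2 above it, while TAL1 and LYL1 lie on opposite sides.

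Partners and targets of the members were followed in 12 lists of 134 genes in all, of which 105 were tested: 29 rose, 39 fell and 37 were not called. The called share was 64.8%, against 53.8% of all genes, and the median change was -0.16. With equal medians 40 rose and 23 fell, and with equal hybridisation controls 42 rose and 23 fell, so the excess of falls turned to an excess of rises. Known MYB targets showed the most uniform direction, with 9 of 10 lower and 0 higher. Their median change was -0.98, and with equal medians or equal hybridisation controls 6 of the 10 were lower. MYC, a driver of growth and ribosome production, fell by 4.40 (SE 0.0958, adjusted p = 5.29e-09), with means of 9.75 in HHT and 14.15 in vehicle. MPO, the myeloperoxidase of granules, fell by 1.76 (adjusted p = 1.7e-07), with means of 12.63 in HHT and 14.39 in vehicle. BCL2, an inhibitor of apoptosis, fell by 1.35, and KIT, the stem cell factor receptor, by 0.62. CDK6 had a change of -0.16 that turned to 0.20 after quantile normalization, and GATA3 was not called (-0.36).

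Of 10 known targets of HOXA9 and MEIS1, 8 fell and 2 rose, with a median of -0.57, while 24.2% of all genes were called lower and 29.6% higher. MEIS1 itself rose, and its part in these changes was not tested. With equal medians or equal hybridisation controls 5 fell and 2 rose, and 12.7% and 12.8% of all genes were called lower. PIM1, a survival kinase, fell by 1.40 (SE 0.201, adjusted p = 1.96e-04), LMO2 by 0.94 and the receptor FLT3 by 0.48. The FLT3 call was lost with equal medians (-0.24) and equal hybridisation controls (-0.19). ID2 rose by 1.72 (SE 0.111, adjusted p = 6.97e-07) and MEF2C, a transcription factor of myeloid leukaemia, by 0.98. Of 8 known CEBPA targets, 4 fell (MPO, ELANE, ID1 and TRIB1, the last not with equal hybridisation controls) and 1 rose, the interleukin-6 receptor gene IL6R, by 1.01. Of 10 known SPI1 targets, 7 were not called. FES, a myeloid kinase, rose by 0.81 (adjusted p = 1.5e-04), NCF1 rose by 0.74, and CSF1R, the macrophage growth factor receptor, fell by 1.16 (SE 0.35, adjusted p = 0.0197). The CSF1R call was lost with equal hybridisation controls, without HHT replicate 3 and without vehicle replicate 1. The MYB, CEBPA and HOXA9 lists share genes, so their counts are not separate evidence.

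In the TAL1 complex and its E protein partners, 6 of 13 genes rose, 3 fell and 4 were not called. The called share was 69.2%, against 53.8% of all genes (29.6% higher, 24.2% lower). LMO2, the bridge between TAL1 and LDB1, fell by 0.94 (SE 0.102, adjusted p = 2.6e-05), and its second probe set fell by 1.01. TCF3, which encodes the E proteins E12 and E47, fell by 1.26 (SE 0.0632, adjusted p = 1.6e-07), and 7 of its 10 other probe sets fell. SSBP2, which stabilises LDB1, rose by 1.44 (SE 0.0922, adjusted p = 6.87e-07), and all 5 of its other probe sets rose. LDB1 had a change of 0.15 on its brightest probe set and was not called, while its other tested probe set rose by 0.53 (adjusted p = 0.0374). TCF12, another E protein gene, rose by 0.61 on its brightest probe set while its other 3 probe sets fell. The ID genes, whose proteins bind E proteins and block them, were split, with ID1 lower by 1.64 (SE 0.1, adjusted p = 5.11e-07) and ID2 and ID3 higher by 1.72 and 0.83.

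Among 16 other stem and progenitor factors 7 rose and 6 fell as deposited, 10 rose and 2 fell with equal medians, and 10 rose and 3 fell with equal hybridisation controls. As deposited 81.2% were called, against 53.8% of all genes. ERG, an ETS factor of stem cells, fell by 0.94 (SE 0.0751, adjusted p = 2.98e-06), and its 3 other probe sets fell as well. HLF, a factor of dormant stem cells, rose by 1.16 and RUNX2 by 0.65. Of 8 HOX and TALE cofactor genes 3 rose, MEIS2, PKNOX1 and PBX2 (0.60, SE 0.0677, adjusted p = 3.28e-05). Their called share of 37.5% was below that of all genes. None of the other 3 tested probe sets of PBX2 or the other 3 of PKNOX1 was called. The mean of the PBX2 probe sets had a change of 0.09 (adjusted p = 0.615). Of 17 myeloid factors 3 rose and 6 fell as deposited, but 6 rose and 3 fell with equal medians, and 7 rose and 2 fell with equal hybridisation controls. As deposited 52.9% of them were called, close to the share of all genes. With equal medians 37.3% of all genes were called higher and 12.7% lower. The vitamin D receptor gene VDR fell by 0.96 (SE 0.0848, adjusted p = 5.97e-06), and its 3 other probe sets fell.

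Of 12 genes of the Ikaros family and its partners 2 rose and 6 fell, against 3 and 4 with equal medians and 0 and 5 after quantile normalization. As deposited 66.7% were called, against 53.8% of all genes (29.6% higher, 24.2% lower). The corepressor gene SIN3A fell by 1.12 (SE 0.0875, adjusted p = 2.55e-06), and its 2 other probe sets fell. The deacetylase gene HDAC1 fell by 0.49, a call lost with equal medians (-0.25). HDAC2 fell by 0.31, a call lost under each other scaling (-0.07 to -0.03). Neither rise, IKZF5 at 0.30 and CHD4 at 0.27, was called after quantile normalization, without HHT replicate 1 or without vehicle replicate 1. Of 8 genes of the GFI1 repressor complex 3 rose and 4 fell as deposited, and 4 rose and 1 fell with equal medians. The called share as deposited was 87.5%, also against 53.8% of all genes. The CoREST gene RCOR1 rose by 1.01 (SE 0.0725, adjusted p = 1.42e-06) on its brightest probe set, but the mean of its probe sets had a change of 0.32 that was not called (adjusted p = 0.278). RCOR3 rose by 1.20 (SE 0.0669, adjusted p = 3e-07) with another of its probe sets at -1.18, and by 0.37 with the mean of its probe sets. The demethylase gene KDM1A fell by 0.63 (SE 0.0716, adjusted p = 3.73e-05).

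Factors of other lineages were followed as well. Of 7 erythroid and megakaryocyte factors 3 rose, among them the haem sensor gene BACH1 (0.54, adjusted p = 0.00385), and KLF1 fell. The called share of 57.1% was near the 53.8% of all genes. With the mean of its probe sets BACH1 had a change of 0.15 and was not called (adjusted p = 0.694). The KLF1 change of -0.82 (adjusted p = 0.0497) lost its call under each other scaling and whenever 1 array was left out. Of 9 lymphoid factors 3 rose and 3 fell, while 29.6% of all genes were called higher and 24.2% lower. BCL6, a repressor of germinal centre B cells, rose by 2.60 (SE 0.216, adjusted p = 3.86e-06), with means of 9.82 in HHT and 7.22 in vehicle, and its other tested probe set was not called. BCL11B rose by 1.08 (adjusted p = 0.00748), and with the mean of its probe sets it had a change of 0.93 that was not called (adjusted p = 0.0842).

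**Figure D5:**
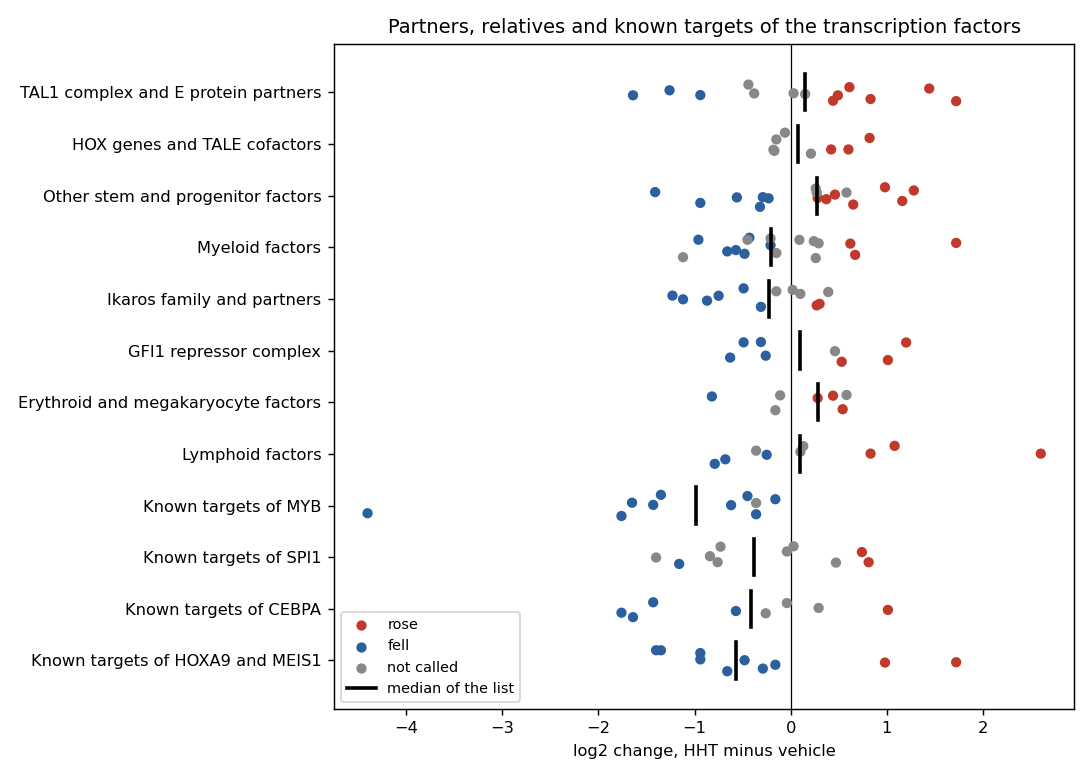
Change in log2 signal (HHT minus vehicle) of each tested gene in the 12 lists of partners, relatives and targets, 1 row per list, with the list median marked. Known MYB targets have the lowest median at -0.98, and the other stem and progenitor factors spread on both sides of 0.

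Cell type markers were followed in the same arrays. Of all genes, 29.6% were called higher and 24.2% lower as deposited, and 37.3% and 12.7% with equal medians. All 4 tested progenitor and blast markers (CD34, KIT, MPO and CD99) fell, with summed linear signals of 27721 to 30252 in HHT and 52418 to 59244 in vehicle, although CD99 had changes of 0.00 and 0.04 with equal medians and equal hybridisation controls. Of 4 granulocyte markers 2 fell (CTSG and ELANE), with sums of 2004 to 2164 in HHT and 3995 to 4981 in vehicle, and of 4 monocyte and macrophage markers 1 fell (CSF1R) on the brightest probe sets, with sums of 198 to 345 in HHT and 386 to 434 in vehicle. Another probe set of ITGAM, one of these monocyte markers and a listed SPI1 target, rose by 2.15 (adjusted p = 0.00739). No tested marker of erythroid (2), megakaryocyte (3) or lymphoid (5) cells was called. Their sums were 319 to 361 in HHT and 350 to 423 in vehicle, 281 to 405 in HHT and 395 to 448 in vehicle, and 3649 to 3980 in HHT and 3469 to 3552 in vehicle. Of 6 non-blood markers 2 fell (EPCAM, and COL1A1 with a call lost with equal medians and equal hybridisation controls), with sums of 7703 to 8637 in HHT and 13478 to 13877 in vehicle. EPCAM, with means of 12.93 in HHT and 13.69 in vehicle, makes up most of those sums. Likewise CTSG (10.87 in HHT, 12.05 in vehicle) makes up most of the granulocyte sums, and CD3D (11.76 in HHT, 11.62 in vehicle) most of the lymphoid sums. KIT (14.22 in HHT, 14.83 in vehicle) and MPO (12.63 in HHT, 14.39 in vehicle) make up most of the progenitor and blast sums. Both are also among the listed MYB targets. No marker was listed at 0 on any array. In bulk RNA, fewer cells of a kind and less RNA per cell cannot be told apart, and the part of the markers in the changes of the factors was not tested.

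Genes with the pattern most like the largest changes were found by the root mean square difference of log2 values, taken from the vehicle mean, over the 6 arrays and among 12765 genes. Nearest to TAL1 were ACAT2 (0.0664, change -2.02), GEMIN5 (0.0737, change -1.99) and MAT2A (0.0741, change -2.16). Nearest to MEIS1 were LPAR2 (0.0817, change 1.47), OASL (0.0835, change 1.56) and KLHL3 (0.131, change 1.40).

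The genes beside the members on the chromosome did not all move with them. Up to 2 protein-coding genes on each side gave 36 neighbours, of which 27 were tested, 9 rose, 9 fell and 9 were not called, or 66.7% called against 53.8% of all genes. Next to TAL1, STIL had a change of -0.01 (SE 0.061, adjusted p = 0.874), with means of 11.64 in HHT and 11.65 in vehicle. CMPK1, the gene after it, fell by 0.39, a call lost with equal medians and equal hybridisation controls. Next to MYB, HBS1L had a change of -0.02 (SE 0.0656, adjusted p = 0.869) on its brightest probe set. Of its 3 other tested probe sets 1 rose, 1 fell and 1 was not called. AHI1 on the other side rose by 0.72 on its brightest probe set while 2 of its other probe sets fell. Next to HHEX, EXOC6 rose by 0.88 (adjusted p = 1.31e-06) and KIF11 was not called (-0.07). Next to MEIS1, SPRED2 fell by 0.50 (adjusted p = 5.82e-04), against the direction of MEIS1, a call lost with equal medians (-0.26) and equal hybridisation controls (-0.21). On the other side of MEIS1, ETAA1 rose by 0.31 (adjusted p = 0.0367) and C1D by 0.37 (adjusted p = 3.68e-04), in the direction of MEIS1.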

How the data were processed

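Total RNA of 6 Kasumi-1 samples was hybridised to Affymetrix arrays. The authors deposited log2 signals for 54675 probe sets, made with MAS5 per the submitters' processing notes; the 2% trimmed mean of the antilog signals lay between 500.06 and 500.07 on each array, so they were scaled to a common mean. Detection calls and probe-level data were not used here. Control probe sets and the 40% of probe sets with the lowest mean were left out (level 4.8), leaving 32768. Symbols came from the platform annotation, updated through Entrez identifiers (41043 of 41091 single-gene probe sets matched); 1801 probe sets with several genes and 11721 with none were not named. HOXA9 was not analysed here.

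Changes were tested with limma 3.58.1 in R 4.3.3 (lmFit, and eBayes with a variance trend) on 3 HHT against 3 vehicle arrays, with Benjamini-Hochberg adjustment over all probe sets tested. Differences between factors within an array were tested by exact permutation in SciPy 1.17.1. Signal, not read depth, limits precision: the median SD within groups was 0.583 among the dimmest 25% of tested probe sets and 0.0858 among the brightest 25%.

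The members and lists were chosen with earlier results of these data known. All members are named, with the 2 called genes of largest change per list whose groups do not overlap and the 3 genes nearest in pattern to the largest rise and fall; other genes were picked after their values were seen, as partners, relatives, targets, markers or neighbours of the members. Lists are described by counts and medians, with no set test. Alternatives were other scalings, filters, a pseudocount of 64, variance models, array weights, the replicate block, averaging a gene's probe sets, stricter thresholds and leaving out each array. The titles number the arrays in sequence by group, so any order effect cannot be told apart from HHT.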

Additional observations from a re-analysis of the deposited data

How the results depend on the processing

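The directions of TAL1, MYB, MEIS1, HHEX, CEBPA and IKZF1 were kept under every alternative tried. MEIS1 (adjusted p = 0.062 with the mean of its probe sets) and IKZF1 lost their calls under some. IKZF1 was not called without a filter (0.0597), without the variance trend (0.13), with the replicate block (0.0576) or with the mean of its probe sets (0.652). GFI1 turned to 0.04 with equal hybridisation controls and was not called without the trend (0.115) or, with adjusted p from 0.0563 to 0.0825, without any array but vehicle replicate 3. GATA2 turned to 0.00 with the mean of probe sets and to -0.03 without vehicle replicate 1 (-0.03 to 0.22 with any array left out), SPI1 to -0.01 without vehicle replicate 2 (-0.01 to 1.23), and MYBL1 to -0.71 with the mean of probe sets. CEBPA minus SPI1 turned to 0.43 with a pseudocount of 64 and ran from -0.53 to 0.63 when 1 array was left out (0.14, 0.03 and 0.63 where it turned). The cause was not tested.

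As deposited 4 factors rose and 3 fell, by probe sets 7 and 6, and in the lists 29 and 39. With equal medians 40 list genes rose and 23 fell, and with equal hybridisation controls 42 rose and 23 fell. With the mean of probe sets 2 factors and 16 list genes rose, and TAL1 minus GATA2 was -1.48. At an adjusted p under 0.01, 4 probe sets rose. With a change of at least 1, 1 factor rose and 1 fell, 1 probe set rose and 3 fell, and 9 list genes rose and 12 fell. Of all 13572 genes tested, 15.5% were called in either direction at that threshold. Leaving out 1 array gave 3 to 4 factors higher and 2 to 3 lower, 5 to 8 probe sets higher and 4 to 5 lower, and 26 to 29 list genes higher and 34 to 37 lower. TAL1 minus GATA2 then ran from -2.30 to -2.06, MYB minus IKZF1 from -1.18 to -1.11 and GFI1 minus SPI1 from -1.57 to -0.22.

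Deviations from the group means had correlations of 0.0655, -0.0141 and 0.0491 between same-numbered arrays of both groups. Between arrays of different number they ran from -0.0887 to 0.0424. Values from 3 arrays per group cannot decide whether the numbers pair the samples. With the replicate number as a block 3 factors rose and 3 fell, 6 probe sets rose and 5 fell, and 32 list genes rose and 37 fell. Dim probe sets spread more between arrays than bright ones, so a change such as that of GFI1 would not have been detectable at the signal of SPI1.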
